A study of Rattus norvegicus with 8 samples.

Results

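Transcripts of 10 genes that mark macrophages were followed in vessels of male rats: Mrc1, Cd163, Csf1r, Lyve1, Cd68, Aif1, C1qa, C1qb, Msr1 and Ccr2. They were chosen as established markers of the cell type, with earlier results of these data known. All 10 of 10 were found on the array by the transcript accession of their probes, among 11965 named genes tested. RNA came from vessels of 4 control rats, of the Wistar-Kyoto strain, and of 4 rats of a hypertensive disease model, with 1 single-colour Agilent array per rat. The strain entry of the hypertensive rats also reads Wistar-Kyoto although the series title sets hypertensive rats against Wistar-Kyoto controls, so the hypertensive strain is not settled here. Neither the kind of vessel nor the age of the rats is given in the sources used here, and no treatment is named for either group. The comparison asks how vessels of the hypertensive model differ from those of control rats.

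Macrophages of the vessel wall live mainly in the outer coat, where they take up debris and proteins, present antigen and signal to neighbouring cells. Many of them are long-lived residents that carry the scavenging receptors encoded by Mrc1, Cd163 and Lyve1 and depend on signals through the receptor encoded by Csf1r. Others arrive from the blood as monocytes, which follow the chemokine CCL2 through its receptor, the product of Ccr2. Cd68, Aif1, C1qa and C1qb are found in most macrophages, resident or recruited.

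Levels are log2 processed signal minus the 75th percentile of the same array, and changes are hypertensive minus control. The ± after a level is the SD over 4 rats and that after a change the standard error of the limma fit, which had 24552 tests. The 75th percentile of the signal was 357 to 503 over the arrays, 58.7% to 64.1% of probes per array were well above background, and no gene spot was saturated. All 8 arrays lay on 1 slide, with the controls in row 1 and the hypertensive rats in row 2 per the file headers, so slide row and group cannot be told apart. Hypertensive replicate 4 stood apart in markers of fat cells, with a mean over 7 such genes of 2.22 relative to the mean of all arrays. The other hypertensive arrays lay between -1.08 and -0.05 and the controls between -0.68 and 0.44. Probes of different genes bind with different strength, so levels of different genes are not ranked against each other. In whole vessels, fewer macrophages and less RNA per macrophage cannot be told apart.

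Mrc1 was lower in vessels of hypertensive rats, and Cd163 and Csf1r lay lower by about the same amount without passing the threshold. In this fit Cd68, Aif1, C1qa and C1qb differed by at most 0.09 on the log2 scale. With median centring, and also without hypertensive replicate 4, C1qa was at -0.17 and Cd68 at -0.14. C1qb was then at -0.08 and -0.07 and Aif1 at 0.0013 and 0.05. Mrc1, Cd163 and Csf1r were at -0.60, -0.77 to -0.76 and -0.58 in these fits. At an adjusted p under 0.05, 1 of the 10 genes was lower and none was higher, where 4.53% of all tests passed, 1.91% in the lower direction and 2.61% in the higher. That split, 470 lower and 641 higher, moved to 586 and 529 with quantile normalization and to 652 and 422 with median centring. For 3 of the 10 genes every hypertensive rat lay on the same side of every control, which held for 13.6% of all tests. These 3 had an unadjusted p under 0.05, against 20.3% of all tests. The median change of the 10 genes was -0.07, beside 0.04 over all tests. Changes of 6 of the 10 genes were below 0, where 42.3% of all tests were, and those of C1qb and Msr1, near 0, changed sign with quantile normalization or median centring.

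**Figure D1:**
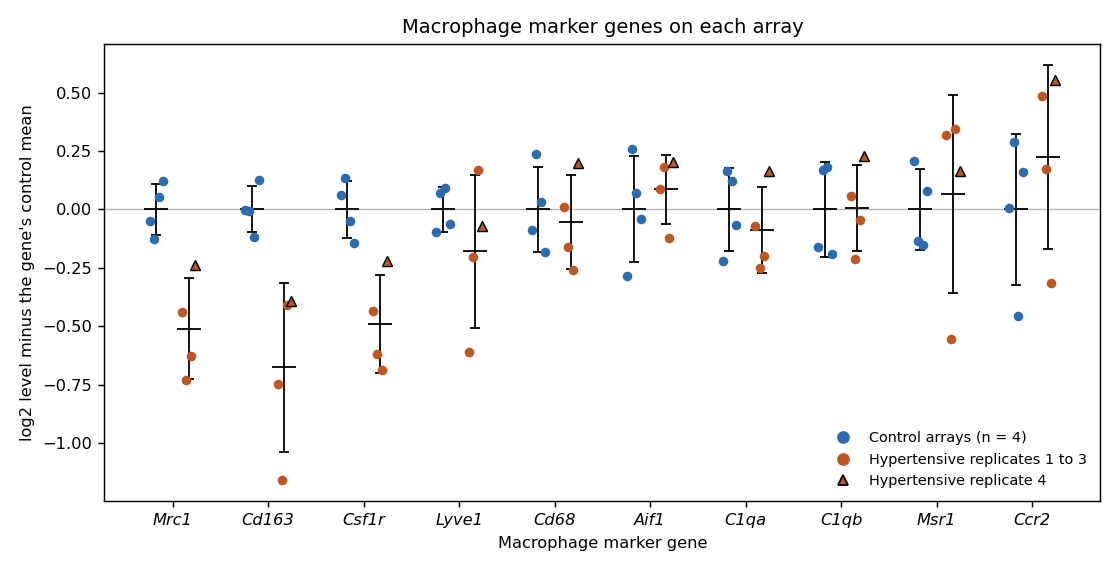
Level of each macrophage marker gene on each of the 8 arrays, as log2 signal minus that gene's control mean. Bars are the group mean with the SD over 4 rats. For Mrc1, Cd163 and Csf1r every hypertensive array lies below every control, and for the other 7 genes the groups overlap.

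Mrc1 encodes the mannose receptor, which binds mannose-rich glycoproteins and brings them into the cell. Over control replicates 1 to 4, in that order, its level was -2.32, -2.40, -2.22 and -2.15, and over the hypertensive replicates -2.71, -3.00, -2.90 and -2.51. All 4 hypertensive rats thus lay below the lowest control, and hypertensive replicate 4 came closest to it. The group means were -2.27 ± 0.11 and -2.78 ± 0.22 (SD, n = 4), a change of -0.51 ± 0.12 or 1.42-fold lower (95% interval -0.78 to -0.24, limma adjusted p = 0.0496). The probe was dim, with a processed signal of 48.8 to 108 over a local background of 16 to 20, but well above background on every array. The call was kept in 1 of the 8 fits that left out 1 array, that without hypertensive replicate 4 (adjusted p = 0.0186), and was lost in the other 7 (up to 0.118). With normexp background correction the change was -0.25 and did not pass (0.0826). The call was also lost with a trended, robust variance (0.0569), without the detection filter (0.123) and with the replicate block (0.0612).

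Cd163 encodes the scavenger receptor for haemoglobin bound to haptoglobin, a hallmark of resident macrophages. Its level was 0.41, 0.40, 0.30 and 0.54 in the controls and -0.34, -0.75, 0.0049 and 0.020 in the hypertensive rats. The hypertensive rats were again all lower, and spread more widely (SD 0.36) than the controls (SD 0.10). The change of -0.68 ± 0.17, or 1.60-fold, was the largest of the 10 in size, with a 95% interval of -1.06 to -0.30 and an adjusted p of 0.0599. It passed without hypertensive replicate 4 (-0.77, adjusted p = 0.0391), with normexp correction (-0.60, 0.0188), with median centring (-0.76, 0.0379) and with a trended, robust variance (0.0277).

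Csf1r encodes the receptor for CSF1 and IL-34, the factors that macrophages need for survival. Its level was -0.28, -0.21, -0.39 and -0.48 in the controls and -0.78, -0.96, -1.03 and -0.56 in the hypertensive rats. The gap between the groups was narrow, since hypertensive replicate 4 lay just below control replicate 4. The change was -0.49 ± 0.12, or 1.41-fold lower, with a 95% interval of -0.76 to -0.22 and an adjusted p of 0.0557. It too passed without hypertensive replicate 4 (-0.58, adjusted p = 0.0204), and with normexp, quantile normalization, median centring or the trended variance (adjusted p of 0.0447, 0.0497, 0.0427 and 0.0326). Over all 17 alternative fits the changes of Mrc1, Cd163 and Csf1r stayed below 0, and the genes passed in 6, 4 and 5 of them.

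**Figure D2:**
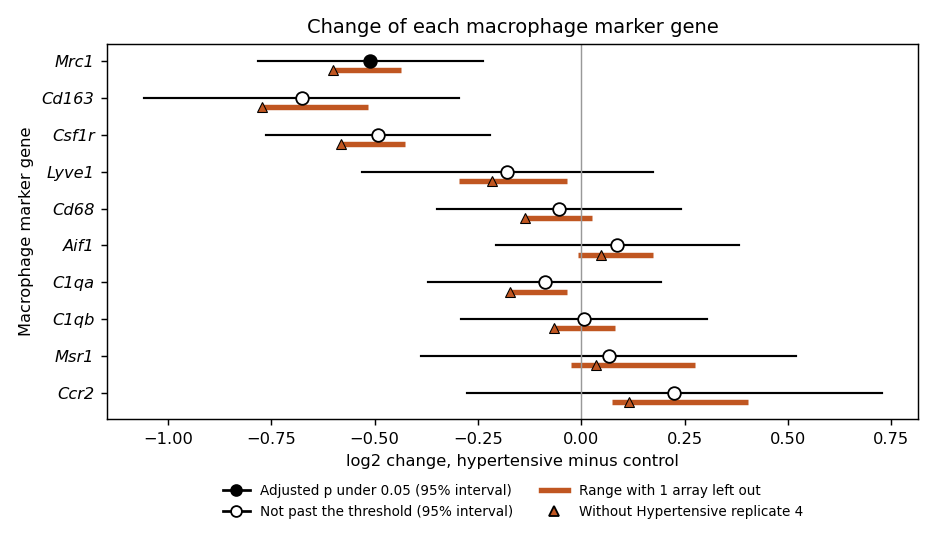
Change of each macrophage marker gene (log2, hypertensive minus control) with its 95% interval; filled points have an adjusted p under 0.05. Orange bars give the range over fits that left out 1 array, and the triangle the fit without hypertensive replicate 4, which moves Mrc1 from -0.51 to -0.60, Cd163 from -0.68 to -0.77 and Csf1r from -0.49 to -0.58.

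Lyve1 encodes a receptor for hyaluronan that is found on perivascular macrophages and also on lymphatic endothelium. Its level was 1.88, 2.05, 2.07 and 1.91 in the controls and 1.37, 1.77, 2.15 and 1.91 in the hypertensive rats. Hypertensive replicate 1 was the lowest of the 8 arrays and hypertensive replicate 3 the highest, so the groups overlapped. The change was -0.18 ± 0.16 (95% interval -0.53 to 0.17, adjusted p = 0.560). Because Lyve1 is shared with lymphatic vessels, 9 lymphatic endothelial genes were examined, of which 7 were tested. Of these 2 fell and 5 did not pass: Pdpn, which encodes podoplanin and is also made by other stromal cells, changed by -1.09 ± 0.08 and the reelin gene Reln by -0.62 ± 0.10 (adjusted p = 0.000172 and 0.00982), and both passed in all 8 fits with 1 array left out. Their other probes were at -1.05 for Pdpn and -0.58 and -0.53 for Reln. The other 5 are named after their values were seen. Ccl21 was at -0.90 ± 0.46, Sema3d at -0.35 ± 0.12 and the lymphatic master regulator Prox1 at -0.17 ± 0.16. The receptor gene Flt4 was at -0.09 ± 0.12 and Nrp2 at 0.05 ± 0.15. The median of the 7 was -0.35, with 6 below 0. Their mean, relative to all arrays, was 0.13 to 0.29 in the controls and -0.46 to -0.11 in the hypertensive rats. The part of lymphatic vessels in the Lyve1 values was not tested.

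Cd68 encodes a glycoprotein of the endosomes and lysosomes of phagocytes. Its level ran from 1.94 to 2.36 in the controls and from 1.86 to 2.32 in the hypertensive rats, and the groups overlapped almost fully. The change was -0.05 ± 0.13 (95% interval -0.35 to 0.24, adjusted p = 0.849), so differences up to those bounds remained within the error. Aif1, which encodes the actin-binding protein IBA1, ran from 3.81 to 4.35 in the controls and from 3.98 to 4.30 in the hypertensive rats. Its change was 0.09 ± 0.13 (95% interval -0.21 to 0.38, adjusted p = 0.744), and its second probe differed by 0.01.

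C1qa and C1qb encode chains of C1q, the recognition molecule of the classical complement pathway, which macrophages supply. The level of C1qa was 3.67, 4.06, 4.01 and 3.83 in the controls and 3.82, 3.64, 3.70 and 4.06 in the hypertensive rats. That of C1qb was 5.15, 5.48, 5.49 and 5.12 in the controls and 5.37, 5.10, 5.27 and 5.54 in the hypertensive rats. Control replicates 2 and 3 and hypertensive replicate 4 were high for both genes, and hypertensive replicate 2 was the lowest of all arrays for both. The change was -0.09 ± 0.12 for C1qa (95% interval -0.37 to 0.19) and 0.0072 ± 0.13 for C1qb (-0.29 to 0.31), with adjusted p of 0.726 and 0.985. Each was read by 9 or 10 spots per array, whose mean had a standard error of at most 0.018, well under the spread of 0.18 to 0.20 (SD) between rats.

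Msr1 and Ccr2 were the most variable of the 10 genes within the hypertensive group. Msr1, which encodes the class A scavenger receptor for modified lipoproteins, had the dimmest probe of the set, with signals of 29.8 to 61.1 over a local background of 17 to 21. Its level was -2.95, -3.29, -3.31 and -3.08 in the controls and -2.84, -3.72, -2.82 and -3.00 in the hypertensive rats, a change of 0.07 ± 0.20 (95% interval -0.39 to 0.52, adjusted p = 0.880). Hypertensive replicate 2 lay lowest and replicates 1 and 3 highest. Ccr2, the receptor of inflammatory monocytes, was at -1.70, -1.42, -2.16 and -1.54 in the controls and -1.22, -1.53, -2.02 and -1.15 in the hypertensive rats. Its change of 0.22 ± 0.22 (95% interval -0.28 to 0.73, adjusted p = 0.608) was the highest of the 10, and its groups overlapped.

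Since all 10 genes were read on the same arrays, each pair gives a ratio from which the scaling of the array cancels. Of the 45 pairs, the ratio did not overlap between the groups for 12. Each of these 12 set Mrc1, Cd163 or Csf1r against 1 of the other 7 genes (21 such pairs), with none among the 3 pairs within that trio or the 21 pairs among the other 7. This grouping was made after the values were seen, and the ratios are not independent of the single-gene values. The log2 ratio of Cd68 to Csf1r was 0.44 higher in hypertensive rats. Relative to the control mean of that ratio, the 4 hypertensive rats lay between 0.42 and 0.46 and the controls between -0.15 and 0.11. The ratio of Mrc1 to C1qa was lower by 0.42 (hypertensive -0.48 to -0.37, control -0.29 to 0.19), and that of Csf1r to C1qa by 0.40 (hypertensive -0.49 to -0.37, control -0.17 to 0.28). For these ratios the hypertensive rats were closer together than for either gene alone, hypertensive replicate 4 included. In the controls the SD of the ratio of Mrc1 to C1qa was 0.23, against 0.11 and 0.18 for the genes alone. That of Csf1r to C1qa was 0.20 (0.12 and 0.18 alone), and that of Cd68 to Csf1r 0.12 (0.18 and 0.12). Not all of the 12 ratios narrowed in the hypertensive rats: the SD for Cd163 to Aif1 was 0.44 (0.36 and 0.15). For each of the 12 the two-sided exact permutation p was 0.0286, the smallest that 4 against 4 arrays can give, and 0.107 after Benjamini-Hochberg adjustment over the 45 pairs, so none passed. Among ratios of every other tested gene or probe to Cd68, 6.17% did not overlap between the groups. That share was 6.97% for C1qa, 5.58% for C1qb and 6.97% for Aif1 as the denominator, 9.65% for Lyve1, 3.23% for Msr1 and 3.8% for Ccr2. It was 48.3% for Mrc1, 64.9% for Cd163 and 46.9% for Csf1r, so separation from the trio was common over the whole array.

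**Figure D3:**
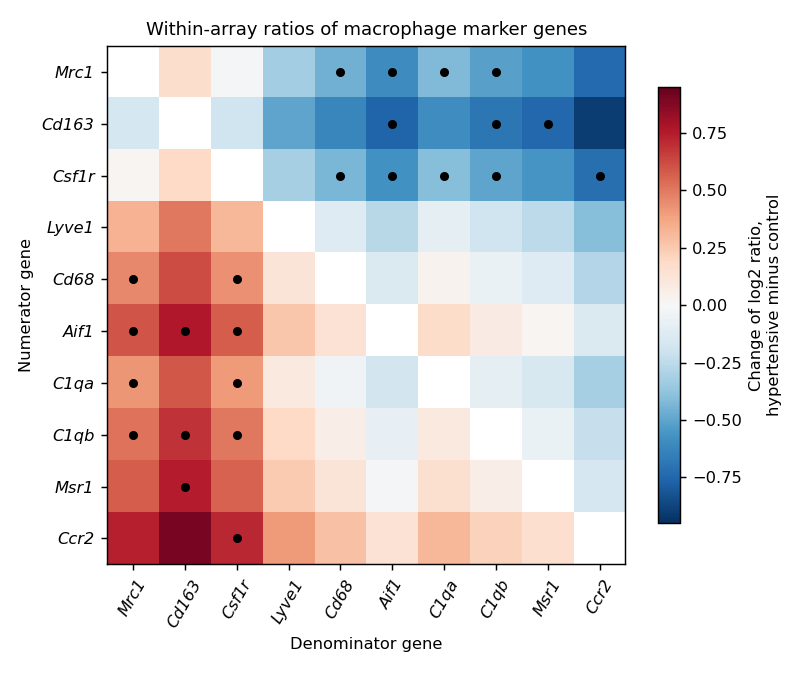
Change of the log2 ratio of each pair of macrophage marker genes within arrays, hypertensive minus control, with the numerator in rows and the denominator in columns. Black dots mark the 12 pairs whose ratios do not overlap between the 4 control and 4 hypertensive arrays; each sets Mrc1, Cd163 or Csf1r against another gene.

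The genes were also compared for how they varied from rat to rat, with each group's mean removed, over 8 arrays. These correlations are descriptions, since the arrays share a scaling and any tissue admixture they may share was not tested. C1qa and C1qb, neighbours on the chromosome, varied most closely (Pearson r = 0.926, Spearman 0.857; r = 0.922 without the 2 arrays farthest from the median of C1qa). Cd68 varied with Csf1r (r = 0.898, Spearman 0.929; 0.745 without the 2 farthest arrays) and with C1qa (0.860, 0.762 and 0.624). Cd163 and Msr1, both scavenger receptors, gave r = 0.805 and Spearman 0.619, with 0.499 without the 2 farthest arrays. Lyve1 had the lowest median r to the other 9 genes, -0.07, and Msr1 the next lowest, 0.04. The low values of Lyve1 depended in part on single arrays. Without the 2 arrays farthest from the median of Lyve1, r was 0.94 with C1qa, 0.935 with C1qb and 0.767 with Aif1. On the same arrays it was -0.11 with Msr1 and 0.0016 with Ccr2, and the remaining genes were not compared with Lyve1 on them. Over all 45 pairs the median r was 0.344 and 36 were above 0. Without hypertensive replicate 4 the median was 0.0933 and 26 were above 0. That array was the highest of its group for 8 of the 10 genes, and hypertensive replicate 2 was the lowest of all 8 arrays for 5.

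Among 11955 other named genes, those whose group-centred levels followed the mean of the 10 genes most closely over the 8 arrays were Mecr (r = 0.978), Gstm4 (0.963), Ube2l3 (0.960), Alas2 (0.959), Pclaf (0.958) and Ctss (0.958). Ctss encodes cathepsin S, a protease of antigen-presenting cells, and Alas2 the first enzyme of haem synthesis in red cell precursors. These 6 were picked as the highest of 11955 values from only 8 arrays, so high r came with the choice. How many genes would reach such values by chance was not tested. Spearman's correlation was 0.881 to 1 for these 6 genes, on the same arrays and so no separate check. Without hypertensive replicates 2 and 4, the arrays farthest from the median, r was 0.786 to 0.940 over 6 arrays. None of the 6 passed between the groups (adjusted p of 0.231 to 0.815), though Alas2 did without hypertensive replicate 4 (-1.16, adjusted p = 0.0139).

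The promoters of the trio that lay lower and of the C1q pair that varied together are shown, as the 250 bases before the start site in the RefSeq table (build GRCr8), 5′ to 3′ along the gene. Of the 10 genes, 8 were matched in that table, and Aif1 and Msr1 were not. Capitals mark GAGGAA or its reverse complement TTCCTC, the core letters of sites for PU.1, the transcription factor that specifies macrophages.

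Mrc1, chr17:82157475-82157724, plus strand: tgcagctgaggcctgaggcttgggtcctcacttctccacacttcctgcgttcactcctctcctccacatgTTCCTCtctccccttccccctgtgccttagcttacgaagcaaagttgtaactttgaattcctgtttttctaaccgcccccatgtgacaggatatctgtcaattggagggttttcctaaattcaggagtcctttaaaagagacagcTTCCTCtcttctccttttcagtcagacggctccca
Csf1r, chr18:56834129-56834378, plus strand: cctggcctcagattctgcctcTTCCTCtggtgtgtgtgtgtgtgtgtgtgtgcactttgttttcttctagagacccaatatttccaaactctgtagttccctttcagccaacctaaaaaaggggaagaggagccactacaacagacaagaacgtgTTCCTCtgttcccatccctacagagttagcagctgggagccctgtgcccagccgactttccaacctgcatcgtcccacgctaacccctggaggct
Cd163, chr4:158770524-158770773, plus strand: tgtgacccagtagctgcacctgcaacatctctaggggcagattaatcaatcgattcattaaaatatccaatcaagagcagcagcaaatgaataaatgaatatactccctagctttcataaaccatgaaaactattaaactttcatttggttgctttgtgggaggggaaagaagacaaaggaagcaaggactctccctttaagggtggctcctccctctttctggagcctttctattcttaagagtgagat
C1qa, chr5:154419934-154420183, minus strand: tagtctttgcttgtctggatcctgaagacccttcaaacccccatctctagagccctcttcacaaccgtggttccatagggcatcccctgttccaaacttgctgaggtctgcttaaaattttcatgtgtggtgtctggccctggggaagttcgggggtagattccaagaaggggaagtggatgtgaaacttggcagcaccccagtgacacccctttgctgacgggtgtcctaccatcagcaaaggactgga
C1qb, chr5:154407828-154408077, minus strand: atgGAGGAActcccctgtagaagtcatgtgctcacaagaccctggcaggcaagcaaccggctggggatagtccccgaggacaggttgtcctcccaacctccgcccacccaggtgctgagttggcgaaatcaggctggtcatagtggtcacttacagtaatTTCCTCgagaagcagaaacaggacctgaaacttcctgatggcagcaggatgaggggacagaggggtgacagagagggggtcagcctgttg

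GAGGAA was found on either strand in 4 of the 8 promoters (Mrc1, Cd68, Csf1r and C1qb) and in 23.3% of 33469 promoters of the same length. It stood 35 and 180 bases before the start of Mrc1 and 95 and 229 bases before that of Csf1r, counted to the first base. Cd163, the third gene of the trio, held none. The longer letters GAGGAAGT, which contain the core, were in none of the 8 and in 2.04% of all. TGCTGA, part of sites for MAF factors, was in 2 of the 8, C1qa and C1qb, and in 15.1% of all. TGANTCA, the AP-1 site, and the composite site of PU.1 and IRF factors were each in 1 of the 8, that of Cd68, and in 6.34% and 2.48% of all. The trio thus shared none of the motifs searched, and a match is not a bound site.

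Other genes of macrophages were examined in 9 lists, with 148 genes, of which 126 were tested. The lists were written with earlier results of these data known, so their counts are not independent evidence. Of the 126 genes 11 were lower, 1 was higher and the rest did not pass, or 9.52% past the threshold beside 4.53% of all tests. Their median change was -0.08.

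**Figure D4:**
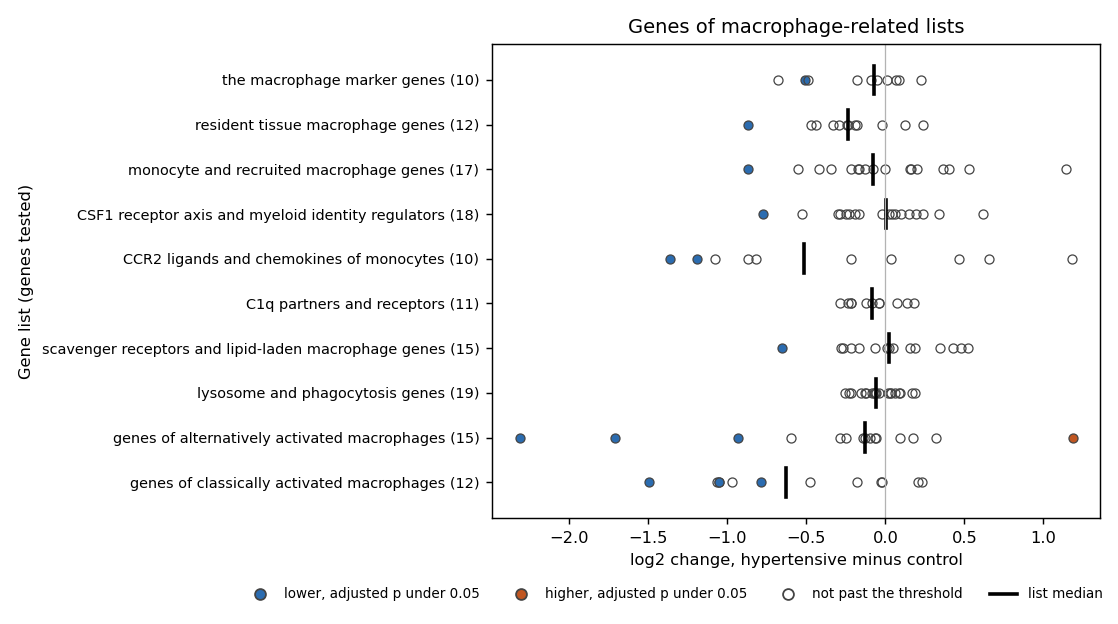
Change (log2, hypertensive minus control) of each tested gene in the macrophage marker genes and in 9 related lists, with the number tested in brackets; filled points have an adjusted p under 0.05 and the black bar is the list median. The medians lie between -0.63, for genes of classical activation, and 0.02, for scavenger receptor genes.

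Of 20 listed genes of resident tissue macrophages, 12 were tested, 1 was lower and 11 did not pass. Their median was -0.24 and 10 were below 0, where 42.3% of all tests were. Fcna, which encodes ficolin A, a lectin of the complement system, fell from 0.35 ± 0.20 to -0.52 ± 0.28 (change -0.87 ± 0.16, adjusted p = 0.0178), with every hypertensive rat (-0.76 to -0.12) below every control (0.14 to 0.60). The call was lost without hypertensive replicate 2 or 3. Of genes named after their values were seen, Adgre1, which encodes the macrophage antigen F4/80, was at -0.47 ± 0.15, Pf4, a platelet and macrophage chemokine gene, at -0.44 ± 0.11 and the folate receptor gene Folr2 at -0.24 ± 0.14 (adjusted p of 0.118, 0.0557 and 0.376). Of 17 tested genes of monocytes and recruited macrophages the 1 that was lower was again Fcna, reached through its synonym Fcn1, and the median was -0.08.

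Genes of 2 ligands of the CCR2 receptor fell, while Ccr2 itself did not pass. Of 10 tested chemokine genes of monocytes, 2 were lower and 8 did not pass, with a median of -0.52 and 4 above 0. Named after their values were seen, Ccl12 was at -0.87 ± 0.27 without overlap and Ccl5 at 1.18 ± 0.39 (adjusted p = 0.11 and 0.134). Ccl7 was 0.35 to 1.13 in the controls and -0.78 to -0.25 in the hypertensive rats, a change of -1.36 ± 0.18 or 2.57-fold (adjusted p = 0.00395), and passed in all 8 fits with 1 array left out. Ccl2, the main ligand of CCR2, was 3.74, 3.74, 4.82 and 3.67 in the controls and 3.0, 2.70, 2.82 and 2.68 in the hypertensive rats. Control replicate 3 was far above the rest, and the other 3 controls still lay above all hypertensive rats. Its change was -1.19 ± 0.24 or 2.29-fold (adjusted p = 0.0301), a call lost in 6 of the 8 fits with 1 array left out, those without control replicates 1 or 2 or any 1 hypertensive rat. The Ccl2 call was also lost without the detection filter (adjusted p = 0.0682) and with the replicate block (0.0592).

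Around the CSF1 receptor, neither ligand gene passed: Csf1 was at 0.06 ± 0.12 and Il34 at -0.30 ± 0.15 (adjusted p = 0.815 and 0.301, both named after their values were seen). Of 18 tested genes of this axis and of myeloid identity, 1 was lower and 17 did not pass, with a median of 0.00083. The gene that fell was Klf4, a transcription factor gene of monocytes that vessel wall cells also express (-0.77 ± 0.13, adjusted p = 0.0137). It passed in all 8 fits with 1 array left out but not with the replicate block (0.073). Spi1, the gene of PU.1, was at -0.19 ± 0.18 (adjusted p = 0.602, named after its value was seen).

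Of 11 tested C1q partners and receptors none passed, and 1 had an unadjusted p under 0.05 in the limma fit. That was Lrp1, a receptor that clears C1q-coated particles among many ligands, at -0.28 ± 0.11, and next to it was C1s, a protease of the C1 complex, at -0.22 ± 0.13 (adjusted p = 0.182 and 0.371). The third C1q chain gene, C1qc, named after its value was seen, was at -0.24 ± 0.18. Of 15 tested scavenger receptor and lipid-handling genes, 1 was lower and 14 did not pass, with a median of 0.02. It was Abcg1, which encodes a cholesterol exporter, at 1.96 to 2.10 in the controls and 1.18 to 1.66 in the hypertensive rats (-0.66 ± 0.11, adjusted p = 0.0135). Abcg1 passed in all 8 fits with 1 array left out but not with the replicate block (0.0607). Of 19 tested lysosome and phagocytosis genes none passed, and 2 had an unadjusted p under 0.05, the cathepsin D gene Ctsd (0.19 ± 0.08) and the progranulin gene Grn (-0.26 ± 0.11), with adjusted p of 0.233 and 0.245.

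Genes of both activation states were among those that passed, 6 lower and 1 higher. Of 15 tested genes of alternative activation, 3 were lower, 1 was higher and 11 did not pass, with a median of -0.13. Il10, an anti-inflammatory cytokine gene, changed by -2.31 ± 0.41 (adjusted p = 0.0156), from -2.88 to -1.66 in the controls to -5.18 to -3.42 in the hypertensive rats, where only 2 of 4 arrays were above background. Its second probe was at -1.86, the change with normexp was -0.83, and the call was lost without control replicate 1. Socs3, which encodes an inhibitor of cytokine signalling, changed by -1.71 ± 0.26 and Ccl24, an eosinophil chemokine gene, by -0.93 ± 0.11 (adjusted p = 0.00850 and 0.00197), and both passed in all 8 fits with 1 array left out. Chi3l1, which encodes a chitinase-like protein, rose by 1.19 ± 0.25 (adjusted p = 0.0325), or 0.68 with normexp, a call lost without any 1 control or hypertensive replicates 1 or 2.

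Of 12 tested genes of classical activation, 3 were lower and 9 did not pass, with a median of -0.63. Il1b and Il18 encode cytokines that caspase-1 releases in active form. Il1b changed by -1.49 ± 0.20 and Il18 by -0.79 ± 0.12 (adjusted p = 0.00380 and 0.00874), and both passed in all 8 fits with 1 array left out. Ptgs2, which encodes an inducible cyclooxygenase, changed by -1.05 ± 0.22 (adjusted p = 0.0308), a call kept only when control replicate 2, hypertensive replicate 1 or hypertensive replicate 2 was the array left out. Cells other than macrophages also express Socs3, Ptgs2, Il18, Chi3l1 and Ccl2, and which cells the signal came from was not tested.

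Genes carried by all leukocytes were checked beside the macrophage genes. Of 9 tested, Arhgdib rose by 0.81 ± 0.08 (adjusted p = 0.000757), from 4.95 to 5.12 in the controls to 5.73 to 5.91 in the hypertensive rats, and the other 8 did not pass. The list median was -0.05, and the common leukocyte antigen gene Ptprc, named after its value was seen, was at -0.18 ± 0.20. The mean of the list, relative to all arrays, was -0.10 to 0.16 in the controls and -0.38 to 0.03 in hypertensive replicates 1 to 3. In hypertensive replicate 4 it was 0.37, so that the array with the most fat cell signal also had the most leukocyte signal. Without that array the median change of the 10 macrophage genes was -0.15. The part of fat tissue in these values was not tested.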

How the data were processed

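Vessel RNA of 4 control and 4 hypertensive rats, grouped and numbered by the sample titles, was labelled with Cy3 and read on 1 array each, per the labels' protocols. The deposited files give spot intensity values processed by Agilent Feature Extraction, version 10.7.1.1 per the file headers and 12.1.1.1 per the submitters' processing notes. The deposited value table, a linear ratio, equalled that intensity divided by 1 constant per array, with 0 of the brighter probes (ratio over 1) differing by over 5%; its column medians were 0.086 to 0.101, and it served as an alternative.

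Flagged spots were dropped if their probe had an unflagged one, spots were averaged on the log2 scale, and the 75th percentile was subtracted. Probes well above background (on 50% or more of their spots) on at least 3 of 4 arrays of a group were kept (27822 of 45598). Accessions without version were matched to the RefSeq table (assembly GRCr8), naming 21229 probes. The brightest kept probe stood for a gene.

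Groups were compared over 24552 tests with limma 3.58.1 in R 4.3.3 (lmFit, eBayes, Benjamini-Hochberg adjustment, threshold 0.05), checked on simulated data. Each such adjusted p is from this fit. Ratios were tested by exact permutation (SciPy 1.17.1). P-values measure the spread between these rats, 4 a group, which sets the precision.

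The genes and lists were chosen with earlier results of these data known. The text names the 10 genes, from each list up to 4 genes past the threshold (or the 2 with the smallest p), the 6 genes most correlated with the mean of the 10, and others marked as chosen after their values were seen. Alternatives changed the background correction, scaling, detection filter, values, probe choice, variance model, replicate block or arrays used. With 1 slide and 1 scan date, no slide block was fitted.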

Additional observations from a re-analysis of the deposited data

How the results depend on the processing

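Of the 10 macrophage genes, 1 passed. The count was 2 with normexp on the median signals (an alternative chosen after seeing the data, as the planned mean signals were not used here), 2 with quantile normalization, 2 with a trended, robust variance and 3 with median centring, all lower. With normexp and with the trended variance the 2 were Cd163 and Csf1r, and Mrc1 did not pass. With quantile normalization they were Mrc1 and Csf1r, and with median centring Mrc1, Cd163 and Csf1r. The count was 0 without the detection filter and 0 with the replicate block, each with 3 at an unadjusted p under 0.05 in limma, and 0 to 3 with 1 array left out. It was 3 without hypertensive replicate 4 and 0 without any other 1 array. Over all tests 1111 passed (641 higher, 470 lower), 1857 with normexp, 641 without the filter, 675 with the replicate block and 629 to 1473 with 1 array left out (629, 725, 695 and 688 without control replicates 1, 2 and 3 and hypertensive replicate 2). The median change of the 10 genes was -0.16 to -0.07 in the other alternatives and -0.15 to -0.0059 with 1 array left out. The replicate numbers are not known to pair the rats: same-numbered arrays correlated at 0.206, 0.115, -0.0036 and -0.148. No named gene that passed changed sign in any alternative run. The calls of Chi3l1, Ptgs2, Clec9a and Myl9 were lost without the detection filter and with the replicate block. The signals of Mrc1 and Msr1 were the closest to background of the 10.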

Other observations

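Markers of other immune cells were examined by cell type. Of 8 mast cell genes, all tested, none passed and 6 had an unadjusted p under 0.05 in the limma fit, beside 20.3% of all tests. The median change of the list was 0.72, or 0.51 without hypertensive replicate 4. That array had the highest mean of the list, 0.74 relative to all arrays. Tpsab1, a tryptase gene, was at 0.83 ± 0.26 and Cma1, the chymase gene, at 0.82 ± 0.24 (adjusted p = 0.111 and 0.0915). Of 9 tested T and B cell genes none passed and 3 had an unadjusted p under 0.05, with a median of -0.39. The T cell receptor complex genes Cd3d and Cd3g were at -0.74 ± 0.18 and -0.89 ± 0.25 (adjusted p = 0.0531 and 0.0817), and passed without hypertensive replicate 4 (-0.88 and -1.13, adjusted p = 0.0173 and 0.00948). In hypertensive replicate 4 the mean of the T and B cell list was 0.39 relative to all arrays, within the control range of -0.06 to 0.39, while hypertensive replicates 1 to 3 lay at or below -0.42.

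Of 6 tested dendritic cell genes 1 passed and 4 were below 0, with a median of -0.12. Clec9a, which encodes a receptor for dead cells on cross-presenting dendritic cells, rose from -2.37 ± 0.36 to -1.39 ± 0.34 (SD, n = 4; change 0.97 ± 0.22, adjusted p = 0.0406). The call was lost in 6 of the 8 fits with 1 array left out (kept without control replicate 2 or hypertensive replicate 3). Cd83, a marker of mature dendritic cells named after its value was seen, was at -0.47 ± 0.12 (adjusted p = 0.0687), and its groups did not overlap. Of 9 neutrophil genes 1 was tested, S100a9, at -0.97 ± 0.63 (adjusted p = 0.428), with 0 at an unadjusted p under 0.05. Hypertensive replicate 1 was at -6.75 and the other hypertensive rats at -4.16 to -3.59; without it the change was -0.23, and with normexp -0.08.

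Among cells of the wall, 1 of 9 smooth muscle genes passed. Myl9, which encodes a light chain of myosin, was lower (-0.45 ± 0.10, adjusted p = 0.0481), and with 1 array left out it passed only without hypertensive replicate 3. Of the 9 genes 6 were above 0, with a median of 0.08, and Lmod1, the leiomodin gene, named after its value was seen, was at 0.63 ± 0.17 (adjusted p = 0.0812) with no overlap. None of 8 tested blood endothelial genes passed (2 at an unadjusted p under 0.05; Cldn5 -0.43 ± 0.11, Vwf 0.46 ± 0.17), nor of 9 fibroblast genes (1; Lum -0.45 ± 0.13, Col1a1 -0.95 ± 0.45), nor of 7 fat cell genes (0; Lipe 0.60 ± 0.29, Fabp4 0.93 ± 0.49). Without hypertensive replicate 4, Lum passed (-0.54, adjusted p = 0.0492), Lipe was at 0.33 and Fabp4 at 0.41, and the median of the fat cell list went from 0.42 to -0.41. The second Vwf probe was at 0.10 and the mean of both at 0.28, and the second Col1a1 probe was at -0.44. Of 3 tested erythroid genes 1 passed and 2 were below 0, with a median of -0.45. Epb42, a red cell membrane protein gene, rose by 0.74 ± 0.12 (adjusted p = 0.00874), or 0.39 with normexp. Alas2 was at -0.80 ± 0.34 (adjusted p = 0.231), at -1.16 without hypertensive replicate 4 (0.0139) and at -0.08 with normexp (0.677).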
